A study of Mus musculus with 6 samples.

Results

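Platelet glycoproteins and granule genes were followed in mouse haematopoietic progenitors forced to express EVI1. The set held 10 genes, listed by symbol as megakaryocyte and platelet genes: Gp1ba, Gp1bb, Gp9 and Gp5, which encode the von Willebrand factor receptor, Itga2b of the fibrinogen receptor, the granule genes Pf4, Ppbp and Vwf, and the receptor genes F2rl2 and Treml1. Of these, 9 were measured among 18192 genes in all, through 11 probe sets annotated to 1 gene each. Gp1ba had no such probe set and was not analysed here. For Gp1bb and F2rl2, which had 2 probe sets each, the one with the higher mean over the 6 arrays stood for the gene.

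Megakaryocytes are large marrow cells that shed platelets. They load alpha granules with chemokines and adhesion proteins and place on their surface the receptors by which platelets bind von Willebrand factor and fibrinogen and sense thrombin. Some of these genes are not restricted to that lineage: Vwf is also made by endothelium, and Itga2b is also found on early blood progenitors and mast cells.

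The EGFP-positive group consisted of lineage-negative (Lin-) Rosa26rtTA cells, of C57BL/6J background, carrying the vector pRRL.TET.EVI1.IRES.EGFP, which couples EVI1 to the fluorescent protein EGFP under a tetracycline-responsive promoter. The EGFP-negative group consisted of Lin- Rosa26rtTA cells of the same background that the sample source calls untransduced, while the design text describes EGFP negative or low cells of the same sort. In both, the Rosa26 locus supplies the transactivator that doxycycline switches on, the medium, S3F11, held SCF, Flt3L and IL-11 at 50 ng/ml each and IL-3 at 20 ng/ml, and the design gives 20 hours of doxycycline (1 µg/ml) before the sort. Each group had 3 Affymetrix arrays. No age of the mice was found in the labels, and a vector without EVI1 was not among the groups, so EVI1, transduction and EGFP sorting cannot be told apart.

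All values below are log2 expression values from the authors, and differences are EGFP-positive minus EGFP-negative with the adjusted p of limma after Benjamini-Hochberg adjustment over all genes, called under 0.05. The 6 arrays had medians of 5.11 to 5.14 and correlated at 0.995 within EGFP-negative, 0.989 within EGFP-positive and 0.968 to 0.969 between groups. The highest of 27 bacterial control probe sets, 3.61, marks the background. The excess of 3' over 5' signal of Actb, a sign of RNA quality or amplification, was 0.80 ± 0.05 (SD, n = 3) for EGFP-negative arrays and 1.00 ± 0.03 for EGFP-positive ones. For Gapdh the excess was 0.82 ± 0.02 for EGFP-negative and 1.06 ± 0.04 for EGFP-positive arrays. The part of this excess in the results was not tested. The lead probe set of Mecom, the gene of EVI1, read 8.26 ± 0.09 and 7.97 ± 0.20 (adjusted p = 0.13), and the labels do not say which EVI1 sequence the vector carries, so this does not check the labels. Nothing in the labels says that the replicates are separate cultures, so the p-values reflect no more than the spread among these arrays, possibly technical.

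The promoters of 4 genes are shown as examples. Ppbp and Itga2b rose, F2rl2 fell most, and Pf4 is the direct neighbour of Ppbp. Gp1bb, which rose more than Itga2b, is not printed, and its matches are given below with those of the other genes. Each window runs from 250 bases before the transcription start to 50 after it, 5′ to 3′ on the gene's strand, from RefSeq on GRCm38.p6. Capitals mark matches on either strand to GATA factor motifs (AGATAA or AGATAG or TGATAA or TGATAG) and to ETS factor motifs (CAGGAA or CCGGAA).
Ppbp, chr5:90768268-90768567, plus strand: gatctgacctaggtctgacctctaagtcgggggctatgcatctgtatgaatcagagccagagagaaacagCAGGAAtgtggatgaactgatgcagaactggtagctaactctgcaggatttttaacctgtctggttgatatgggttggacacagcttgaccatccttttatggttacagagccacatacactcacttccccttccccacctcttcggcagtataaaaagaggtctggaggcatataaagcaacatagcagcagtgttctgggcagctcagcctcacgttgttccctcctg
Pf4, chr5:90772185-90772484, plus strand: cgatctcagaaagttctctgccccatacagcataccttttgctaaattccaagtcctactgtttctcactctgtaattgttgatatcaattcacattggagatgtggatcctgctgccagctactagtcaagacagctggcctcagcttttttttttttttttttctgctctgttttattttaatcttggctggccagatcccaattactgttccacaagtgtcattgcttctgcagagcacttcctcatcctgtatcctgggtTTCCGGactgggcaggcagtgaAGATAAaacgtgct
Itga2b, chr11:102469834-102470133, minus strand: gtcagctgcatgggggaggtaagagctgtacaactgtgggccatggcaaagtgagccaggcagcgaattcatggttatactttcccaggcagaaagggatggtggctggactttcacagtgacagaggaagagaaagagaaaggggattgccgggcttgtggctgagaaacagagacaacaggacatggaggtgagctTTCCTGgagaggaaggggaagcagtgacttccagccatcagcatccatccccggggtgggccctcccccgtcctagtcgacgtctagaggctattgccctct
F2rl2, chr13:95696670-95696969, plus strand: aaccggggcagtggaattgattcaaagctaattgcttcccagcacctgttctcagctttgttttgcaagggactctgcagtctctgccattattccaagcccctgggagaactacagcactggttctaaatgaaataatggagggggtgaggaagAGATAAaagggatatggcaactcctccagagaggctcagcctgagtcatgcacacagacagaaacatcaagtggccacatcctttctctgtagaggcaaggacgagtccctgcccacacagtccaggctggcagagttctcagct

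A promoter sequence was found for 9 of the 10 genes, all but Vwf. A GATA motif stood in 5 of them, Pf4, Gp1ba, Gp1bb, Gp5 and F2rl2, against 29.8% of 32851 promoters of the same length. An ETS motif stood in 5, Pf4, Ppbp, Itga2b, Gp1ba and Treml1, against 41.4%. The EVI1 motif GACAAGATA was in 0 of the 9 and in 0.119% of all promoters. Among the genes that rose, Ppbp and Itga2b held an ETS but no GATA match and Gp1bb a GATA but no ETS match. Among those that fell, F2rl2 held GATA and Treml1 ETS. Neither motif thus marked one direction, and the count of 9 is too small for more than this description.

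The platelet genes did not move as a block. In EGFP-positive cells 4 of the 9 measured genes rose (Ppbp, Gp1bb, Vwf and Itga2b), 2 fell (F2rl2 and Treml1) and 3 did not pass the test (Pf4, Gp9 and Gp5). Over all genes 33.2% were called, 16.0% higher and 17.2% lower. The median difference was 0.24 over the 9 genes and 0.02 over all genes. In 7 of the 9 the values of the groups did not overlap, which held for 48.2% of all genes. With 3 against 3 arrays an exact permutation test of a single gene cannot go below p = 0.1, and these 7 reached it. Each array measured a whole sorted fraction, so fewer cells of a type and less RNA per cell cannot be told apart.

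**Figure D1:**
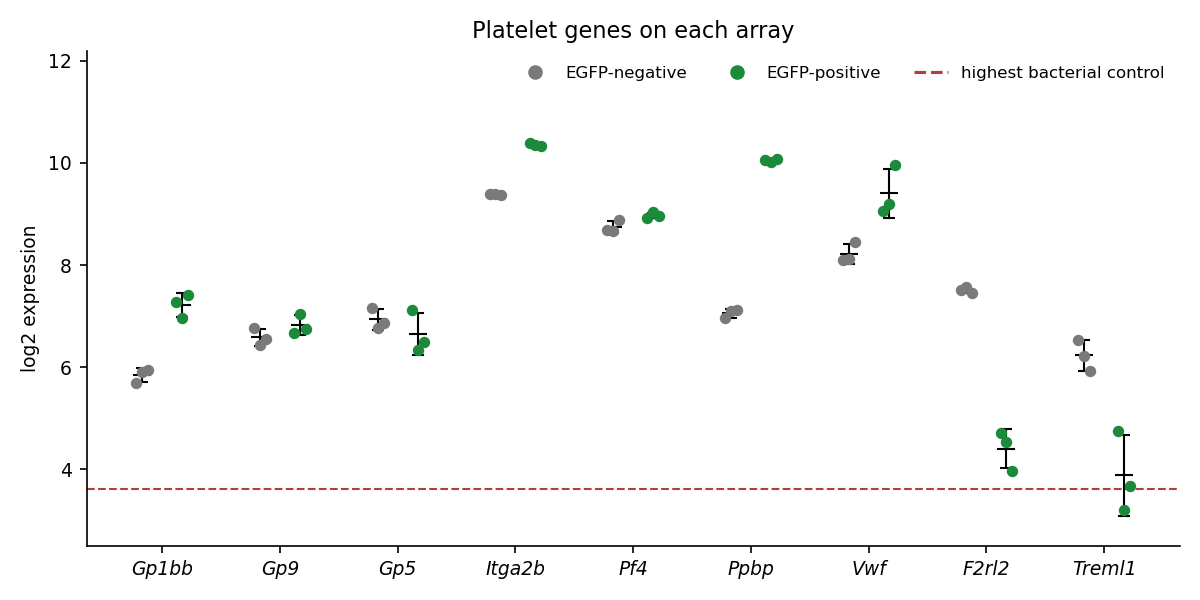
Log2 expression (vertical axis) of the 9 measured platelet genes on each array, EGFP-negative in grey and EGFP-positive in green. Points are arrays, bars the mean ± SD (n = 3) and the dashed line the highest bacterial control at 3.61. Ppbp rises from a mean of 7.05 to 10.05 with little spread, F2rl2 and Treml1 drop towards the line, and Gp9 and Gp5 overlap between groups.

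The subunits of the von Willebrand factor receptor differed from each other. Gp1bb, the beta chain of glycoprotein Ib, read 5.69, 5.90 and 5.94 on the EGFP-negative arrays and 7.28, 6.96 and 7.40 on the EGFP-positive ones. Every EGFP-positive array lay above every EGFP-negative one. The difference was 1.37 (SE 0.14, adjusted p = 0.00073), a 2.59-fold rise. Gp9, the small subunit that the complex needs to reach the surface, read 6.77, 6.43 and 6.54 against 6.66, 7.04 and 6.75. Those ranges overlap, and the difference of 0.24 (95% confidence interval -0.10 to 0.58, adjusted p = 0.26) did not pass. Gp5, the subunit that thrombin cleaves, read 7.17, 6.77 and 6.87 against 7.11, 6.34 and 6.50. Here too the groups overlap, EGFP-positive replicate 1 lying among the EGFP-negative arrays, and the difference was -0.29 (-0.83 to 0.25, adjusted p = 0.39). The intervals of Gp9 and Gp5 do not reach the 1.37 of Gp1bb.

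The rise of Gp1bb rests on both of its own probe sets. Over the 45037 probe sets, of which 24.1% were called, 1422977_at gave 1.37 (adjusted p = 0.0011) and 1456427_at gave 1.36 (from 5.31 ± 0.05 to 6.67 ± 0.17, adjusted p = 0.00050). The remaining probe set, 1452357_at, is annotated to both Septin5 and Gp1bb and was therefore left out of the set. It moved the other way, from 7.50, 7.22 and 7.50 to 5.80, 5.80 and 6.32, a difference of -1.43 (adjusted p = 0.0020). In RefSeq the genes Septin5, a septin of the cytoskeleton, and Gp1bb overlap. Which transcript 1452357_at reports was not tested, and Septin5 has no probe set of its own in this table's annotation.

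**Figure D2:**
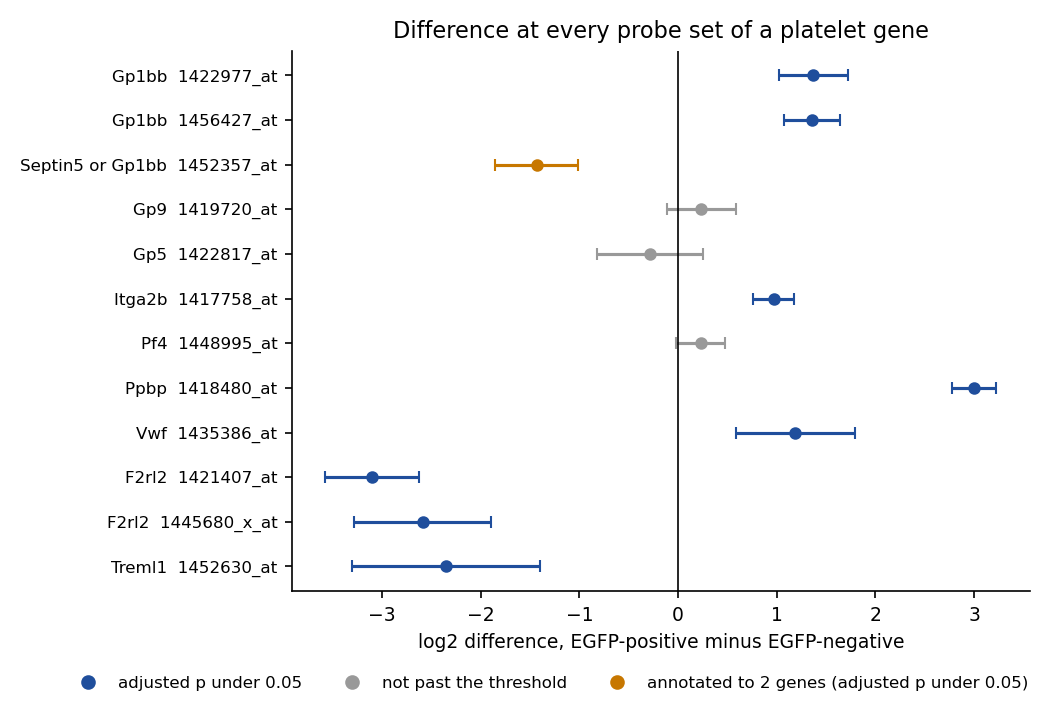
Log2 difference between EGFP-positive and EGFP-negative cells (horizontal axis) with its 95% confidence interval at each probe set of a platelet gene, from the fit over all probe sets. Blue passed the threshold, grey did not, and orange is the probe set annotated to Septin5 and Gp1bb, which lies at -1.43 while the sets of Gp1bb alone lie at 1.37 and 1.36.

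Itga2b, the alpha chain of the fibrinogen receptor, had the smallest spread of the set on the EGFP-negative arrays. It read 9.38, 9.40 and 9.37 on the EGFP-negative arrays and 10.39, 10.35 and 10.33 on the EGFP-positive ones. The groups were separated by far more than their spread of 0.01 and 0.03 (SD), and the difference was 0.97 (SE 0.07, adjusted p = 0.00022), a 1.96-fold rise. Its partner Itgb3, the beta chain, also rose, by 0.73 (11.73 ± 0.03 to 12.46 ± 0.05, adjusted p = 0.00080). Itgb3 has 2 probe sets, and the dimmer one (0.41) did not pass over probe sets.

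Granule genes gave both the largest rise of the set and one of its smallest differences. Ppbp, the precursor of several platelet chemokines, read 6.95, 7.10 and 7.11 on the EGFP-negative arrays and 10.06, 10.03 and 10.07 on the EGFP-positive ones. These groups lie far apart, with a difference of 3.00 (SE 0.08, adjusted p = 1.5e-05), an 8.0-fold rise, and 174 of the 18192 genes differed more in either direction. Pf4, the neighbouring chemokine gene for platelet factor 4, read 8.69, 8.66 and 8.87 against 8.92, 9.03 and 8.96. All 3 EGFP-positive arrays lay above the EGFP-negative ones, but by little. The difference was 0.23 (95% confidence interval 0.0044 to 0.46), and it did not pass after adjustment over all genes (adjusted p = 0.11). Of the 16 alternatives it passed in 1, with the genes dimmer than the median left out (adjusted p = 0.043), and not with those under the background left out (adjusted p = 0.071). Its interval and that of Ppbp (2.80 to 3.20) are far apart.

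Vwf, the large adhesion protein stored in alpha granules, read 8.10, 8.11 and 8.45 on the EGFP-negative arrays and 9.07, 9.20 and 9.96 on the EGFP-positive ones. The groups do not overlap, and EGFP-positive replicate 3 stands above its group. The difference was 1.19 (SE 0.25, adjusted p = 0.013), a 2.28-fold rise. Without EGFP-negative replicate 1 the difference was 1.13 and the call was lost (adjusted p = 0.0502). Because endothelium also makes Vwf, endothelial markers stand beside it: 5 of 8 were higher and 1 lower, against 16.0% and 17.2% of all genes. Their mean level ran from 4.72 to 5.02 over EGFP-negative and from 5.81 to 5.99 over EGFP-positive arrays. On all 3 EGFP-negative arrays 4 of the 8 lay under the background, and Emcn and Cldn5 lay under it in both groups. Their median difference was 1.04, or 0.57 with values under the background set to it. The largest rises among them were those of Plvap, a protein of endothelial pores, at least 11.4-fold (3.25 ± 0.54 to 7.21 ± 0.13), and Tie1, an endothelial receptor kinase, 4.44-fold (6.76 ± 0.17 to 8.91 ± 0.07, adjusted p = 6.4e-05). Cdh5, the endothelial cadherin, went from 2.81 to 3.99, a rise of at least 1.3-fold. All 3 of its EGFP-negative arrays and 1 EGFP-positive array lay under the background. Pecam1, the brightest of these markers and the 1 called lower, fell by 0.87 (9.97 ± 0.17 to 9.10 ± 0.10, adjusted p = 0.0022). The part of such cells in the Vwf result was not tested.

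Both receptor genes outside the glycoprotein complexes fell. F2rl2 encodes a protease-activated receptor that on mouse platelets helps present thrombin to the signalling receptor encoded by F2rl3. It read 7.50, 7.56 and 7.44 on the EGFP-negative arrays and 4.71, 4.53 and 3.97 on the EGFP-positive ones. The arrays of the groups are widely separated, and the difference was -3.10 (SE 0.19, adjusted p = 0.00012), an 8.58-fold fall that 154 genes exceeded in either direction. A dimmer probe set, 1445680_x_at, of a type that can bind related sequences, fell from 5.09 ± 0.35 to 2.51 ± 0.49, at least 2.80-fold, since all EGFP-positive arrays there lay under the background of 3.61. Treml1, a receptor in the alpha granule membrane that reaches the surface on activation, read 6.54, 6.22 and 5.92 against 4.75, 3.21 and 3.67. The groups do not overlap, but the EGFP-positive arrays vary most of the set (SD 0.79), with 1 of them under the background. Its difference was -2.35 (SE 0.40, adjusted p = 0.0056), a fall of at least 4.65-fold.

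Genes near these loci moved in both directions, and some went the way of the platelet gene beside them. Of all genes 33.2% were called. Most neighbours named below after their values were seen were called ones, taken from a wider set. In that set Fam171a2 (0.07) and Gpatch8 (-0.11), directly beside Itga2b, had no call, and Cdc45, near Gp1bb, fell by 2.03. Whether neighbours move together was not tested. In RefSeq the chemokine genes lie in the order Cxcl5, Ppbp, Pf4, Cxcl3, Cxcl15, Cxcl1 and Cxcl2 with no other protein-coding gene between them. Cxcl2, a neutrophil attractant, fell by 0.81 (9.88 ± 0.15 to 9.07 ± 0.20, adjusted p = 0.0052), Cxcl3 read -0.25 (adjusted p = 0.063, but 0.018 and 0.036 under the 2 filters on dim genes) and Cxcl1 -0.09 (adjusted p = 0.89). Cxcl5 (1.66 and 2.51) and Cxcl15 (3.15 and 3.25) lay under the background in both groups, which allows no fold. Cxcl5 still passed the test (adjusted p = 0.047), but lost its call without any of 4 of the 6 arrays. Its call was also lost with a second quantile normalization (adjusted p = 0.0595) and with the robust setting of limma (adjusted p = 0.051). Beyond Cxcl5 the next protein-coding genes, Rassf6 and Albfm1, named after their values were seen, rose as well. Rassf6, of the RAS association domain family, went from 5.85 ± 0.27 to 7.29 ± 0.01, a difference of 1.44 (adjusted p = 0.00069). Albfm1 rose at least 3.60-fold, from 3.45 ± 0.37 to 5.51 ± 0.21 (adjusted p = 0.00070). The rise of Ppbp therefore had called rises on 1 side, that of Cxcl5 under the background. On the other side Pf4, Cxcl3, Cxcl15 and Cxcl1 had no call, and Cxcl2 was called lower.

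F2rl2 lies inside the gene Iqgap2, which encodes a scaffold protein, and on its opposite strand in RefSeq. Iqgap2, named here after its values were seen, fell by 1.54 (10.99 ± 0.03 to 9.45 ± 0.16, adjusted p = 0.00014), and both of its probe sets fell; the difference from the fall of F2rl2 was not tested. The thrombin receptor gene F2r, on the other side of Iqgap2, read 11.61 ± 0.08 and 11.87 ± 0.02 (0.26, adjusted p = 0.053) and passed under 5 of the alternatives, among them equal array medians (adjusted p = 0.040). F2rl3 read 4.54 ± 0.19 and 4.43 ± 0.39 (-0.11, adjusted p = 0.75). Of the 3 measured protease-activated receptors, F2rl2 was the 1 that fell. On the far side of F2rl2 the next 3 protein-coding genes, also named after their values were seen, were all called lower. Sv2c, a synaptic vesicle protein gene, fell at least 2.76-fold, with EGFP-positive values of 2.28, 4.72 and 2.87, and its call (adjusted p = 0.036) was lost without any of 5 of the 6 arrays, all but EGFP-positive replicate 2 (adjusted p up to 0.11). Poc5, a centriole gene, read -0.86 (adjusted p = 0.013) at 1 of its 2 probe sets, -0.49 as their mean, and lost its call without EGFP-negative replicate 2 (adjusted p = 0.052). Ankdd1b read -0.68 (adjusted p = 0.038) and lost its call without any 1 array but EGFP-negative replicate 1 (adjusted p up to 0.12).

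Treml1 belongs to the TREM receptor cluster, most of whose genes serve myeloid cells. Of the 5 other measured members, Trem1 fell at least 22.3-fold (8.16 ± 0.19 to 3.09 ± 0.65), Trem3 fell by 4.08 (8.52 ± 0.15 to 4.44 ± 0.67) and Trem2 fell by 0.86 (adjusted p = 0.0022), though 1 of the 2 Trem2 probe sets did not pass over probe sets. Treml2 rose by 0.55 (adjusted p = 0.0090) at its brightest probe set, 1 of 4 to pass, and read 0.15 (adjusted p = 0.25) as their mean. Treml4 read 3.96 ± 0.17 and 3.48 ± 0.41 (adjusted p = 0.14). B430306N03Rik, which lies between Treml2 and Trem2 and was named after its values were seen, fell by 1.58 (6.93 ± 0.18 to 5.34 ± 0.27, adjusted p = 0.00077). On the other side of Treml1 the next protein-coding genes, also named after their values were seen, had no call. These were Nfya (0.08, adjusted p = 0.50), Oard1 (0.23, adjusted p = 0.092) and Apobec2 (-0.06, adjusted p = 0.74). The fall of Treml1 by 2.35 was smaller than those of Trem1 and Trem3 and larger than those of B430306N03Rik and Trem2, and these differences between genes were not tested.

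**Figure D3:**
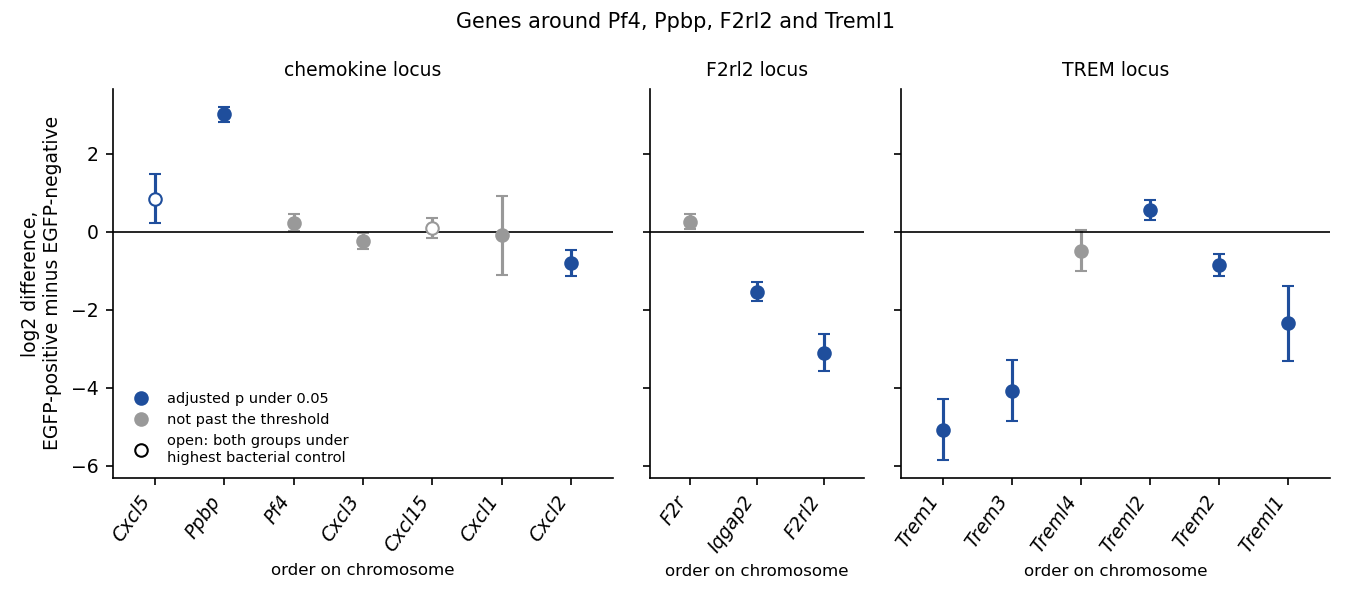
Log2 difference between EGFP-positive and EGFP-negative cells (vertical axis, 95% confidence interval) for genes in their order along the chromosome at the chemokine, F2rl2 and TREM loci. Rassf6, Albfm1, Sv2c, Poc5, Ankdd1b, B430306N03Rik, Nfya, Oard1, Apobec2 and the neighbours of other platelet genes are not drawn. Open points had both group means under the highest bacterial control. Ppbp at 3.00 stands above the other genes drawn, while F2rl2 and Iqgap2, and 4 of the 6 TREM genes, lie below 0 with calls.

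Across 46 other measured megakaryocyte and platelet genes, of 51 listed, 18 rose, 10 fell and 18 did not pass, with a median of 0.13, or 0.05 with values under the background set to it. The 28 called genes are 60.9% of the 46, against 33.2% of all genes. These lists, like the 10 genes, were drawn up with earlier results of these arrays known. The other listed genes were not analysed here. Each of the 4 lists held both rises and falls.

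Of 16 other platelet receptors, 4 rose and 2 fell (median 0.23), so that 37.5% were called, near the 33.2% of all genes. Pear1, a receptor engaged when platelets touch each other, rose by 2.16 (8.90 ± 0.11 to 11.06 ± 0.08, adjusted p = 3.8e-05), with 3 of its 4 probe sets past the threshold. Selp, P-selectin of the alpha granule membrane, rose by 0.94 (6.13 ± 0.14 to 7.07 ± 0.23, adjusted p = 0.0036). The falls were the ADP receptor gene P2ry12, at least 1.17-fold (3.83 ± 0.55 to 2.19 ± 0.16), and the adhesion receptor gene Cd226, whose means of 3.12 and 1.62 were both under the background. The call of Cd226 was lost without EGFP-negative replicate 1 (adjusted p = 0.061) or EGFP-positive replicate 1 (adjusted p = 0.056).

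All 10 other granule genes were called, against 33.2% of all genes, 7 higher and 3 lower (median 0.77). Clu, the secreted chaperone clusterin, rose 15.9-fold (7.53 ± 0.20 to 11.52 ± 0.17), F5, coagulation factor V, rose by 1.67 (adjusted p = 0.00011) and Nbeal2, which alpha granules need to form, rose by 1.01 (adjusted p = 0.00066) at 1 of its 2 probe sets. The falls were F13a1, the factor XIII subunit also made by monocytes (-2.68, from 9.70 ± 0.05 to 7.02 ± 0.34), the cytokine gene Tgfb1 (-1.21) and Srgn, the granule proteoglycan serglycin (-0.65). All 6 measured monocyte markers, F13a1 among them, were called lower, against 17.2% of all genes. The mean level of these markers was 8.63 to 8.68 over EGFP-negative and 6.52 to 6.60 over EGFP-positive arrays. Their part in the fall of F13a1 was not tested.

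Of 9 shape and signalling genes, 2 rose and 3 fell (median -0.20, 55.6% called, against 33.2% of all genes). Tubb1, the beta tubulin of the platelet marginal band, rose 8.0-fold (5.21 ± 0.51 to 8.21 ± 0.13, adjusted p = 0.00034), and Alox12, the platelet lipoxygenase, at least 2.98-fold (3.26 ± 0.19 to 5.19 ± 0.65) at 1 of its 2 probe sets. Plek, the kinase substrate pleckstrin, fell by 1.39, the adaptor gene Lat by 1.01 and Tbxas1, thromboxane synthase, by 0.70. Of 11 transcription factor genes, 5 rose and 2 fell (median -0.08, 63.6% called, against the same 33.2%). Zfpm1, the partner of GATA1, rose by 1.84 (6.94 ± 0.10 to 8.78 ± 0.22), Tal1 by 1.58 and Gata1 by 1.38, while Gfi1b, a repressor needed for megakaryocytes and red cells, fell by 1.02 (adjusted p = 0.0016) and Runx1 by 0.63 (adjusted p = 0.0064).

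**Figure D4:**
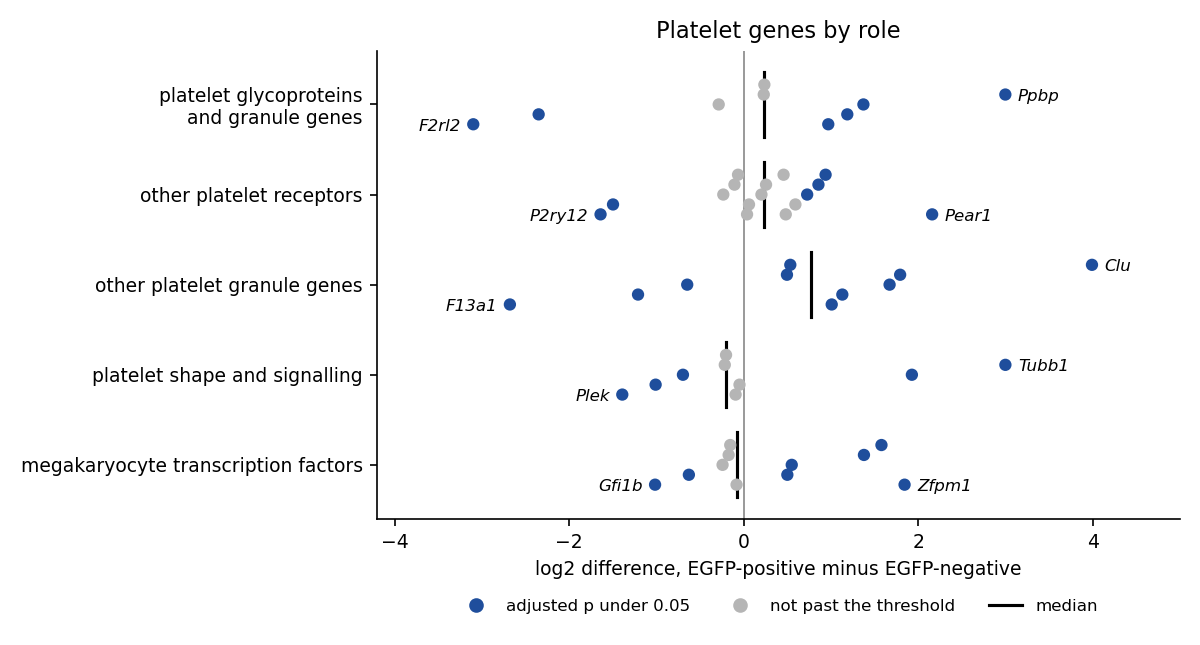
Log2 difference between EGFP-positive and EGFP-negative cells (horizontal axis) for each measured gene, by role. Blue points passed the threshold, black lines are medians, and the lowest and highest gene of each row are named. Every row holds genes on both sides of 0, and the medians run from -0.20 to 0.77.

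Markers of other blood cells moved with the groups as well. For scale, 16.0% of all genes were called higher and 17.2% lower. Erythroid markers were higher for 6 and lower for 1 of 8 (mean level 4.22 to 4.47 and 5.52 to 5.70 over the arrays of each group). Markers of neutrophils were lower for 10 of 10 (11.16 to 11.29 and 8.66 to 8.76), of mast cells and basophils for 6 of 7 (9.57 to 9.64 and 7.43 to 7.55), of eosinophils for 3 of 4 (7.01 to 7.26 and 4.96 to 5.23) and of lymphoid cells for 3 of 6 (5.94 to 6.04 and 4.22 to 4.28). The 4 measured progenitor markers, Kit, Cd34, Cd48 and Flt3, fell too (8.43 to 8.50 and 6.81 to 7.09). Under the background on all 3 EGFP-positive arrays were 1 erythroid, 1 mast cell, 1 eosinophil, 1 monocyte, 1 lymphoid and 2 endothelial markers. On all 3 EGFP-negative arrays this held for 2 erythroid, 1 lymphoid and 4 endothelial markers. With values under the background set to it, the median difference went from 1.04 to 0.57 for endothelial and from 0.86 to 0.85 for erythroid markers. The part of these cell types in the platelet gene results was not tested.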

How the data were processed

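Per the submitters' processing notes the authors' deposited values are log2 expression per probe set made by RMA, of a version the notes do not state. Background correction and normalization were not redone. Of 45037 probe sets other than 64 controls, GEO's platform annotation names 1 gene for 34945, several for 932 and none for 9160. Each gene took the probe set that names no other gene and was brightest on average. Groups and replicate numbers came from sample titles. limma 3.58.1 in R 4.3.3 (lmFit, eBayes, no covariate) was fitted across all 18192 genes and, separately, all probe sets, two-sided, with Benjamini-Hochberg adjustment and a threshold of 0.05. It was tested on simulated data. Values of the dimmer group under the highest bacterial poly-A control (3.61) were raised to it and the fold is a lower bound.

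The members and lists were chosen with earlier results of these data known. Named were the 10 genes, Mecom, Itgb3, all measured genes of the chemokine locus, protease-activated receptor and TREM lists, and from each of 4 platelet lists up to 3 called genes per direction with the smallest p. Gaps in these, and marker genes given beside a result, were named for that reason. Some listed genes are not reported here. Precision is limited by there being 3 arrays a group. No 2 arrays were copies (99 to 300 identical values of 45037). Same-numbered arrays of the groups did not deviate together (r of 0.012, -0.011 and 0.002), so the numbers were not used as pairs in the main fit.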

Additional observations from a re-analysis of the deposited data

How the results depend on the processing

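Over 16 alternatives (replicate block, a second quantile normalization, equal array medians, 2 filters on dim genes, eBayes trend or robust, array weights, other probe set choices and leaving out each array) none of the 9 measured platelet genes changed sign. In all, 140 values kept direction and side of the threshold. The exceptions were Pf4, which passed with the brighter genes only (0.23, adjusted p = 0.043), and Vwf without EGFP-negative replicate 1 (1.13, adjusted p = 0.0502). With the brighter genes only, the count of platelet genes called lower was 0, because F2rl2 and Treml1 are dimmer than the median gene. With the replicate block, 4 rose and 2 fell as before, and 4900 genes were called in place of 6045. Leaving out 1 array gave 4432 to 5664 called genes. Differences over all settings ran from 2.95 to 3.03 for Ppbp, 0.91 to 1.36 for Vwf, -3.25 to -2.84 for F2rl2 and -2.79 to -2.02 for Treml1. Signs changed for 3 values of other named genes, none of them called: Cxcl1 without EGFP-positive replicate 1 (0.38, the highest when 1 array was left out, against a lowest of -0.45), F2rl3 without EGFP-positive replicate 2 (0.020, against a lowest of -0.33) and Mecom with its most variable probe set (0.13). The cause was not tested. Mecom passed as lower without EGFP-positive replicate 1 (-0.41, adjusted p = 0.033), and Treml4 without EGFP-positive replicate 3 (-0.72, adjusted p = 0.011). Signal close to background limits, among others, Treml1, Trem1, Treml4, Cxcl5, Cxcl15, P2ry12, Cd226, Alox12, Albfm1 and Sv2c, and the dimmer probe set of F2rl2.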
